A study of Mus musculus with 6 samples.

Results

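Of 2115 islet wells that passed the quality limits, 73 were pancreatic polypeptide (gamma) wells, chosen by their own hormone reads: pancreatic polypeptide (Ppy) had to make up at least 10% of a well's unique molecular identifiers (UMIs, 1 per captured RNA molecule) and somatostatin (Sst) under 0.73%. They were compared mainly with 143 glucagon-only wells (glucagon, Gcg, at least 2.3%, Ppy under 10%, Sst under 0.73%, Ins1 plus Ins2 under 3.3%). Single cells had been sorted into 384-well plates and sequenced by MARS-seq, a 3' end method that counts UMIs. The 6 plates held islet cells of male mice that carried Sox9-CreER, a tamoxifen-driven recombinase expressed from the duct gene Sox9, and a tdTomato reporter that recombination switches on. The mice of both groups were given 8 mg of tamoxifen from 10 weeks of age over 2 weeks, had a partial pancreatectomy (ppx, 3 plates) or a sham operation (3 plates) at 12 weeks, and gave islets 4 weeks later. Plates sham 1 and ppx 1 held tomato-positive cells, sham 3, ppx 2 and ppx 3 tomato-negative cells, and sham 2 held positive cells in its first 4 rows and negative cells in the others. The labels do not say which region of the pancreas gave the islets, so operation and region cannot be told apart. Nor do they say whether each plate came from its own animal, so p-values measure the spread between plates only. The series' design text speaks of 2300 cells from 6 pancreata, and the tables held 2304 wells.

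Gamma cells are the islet endocrine cells that make pancreatic polypeptide, a peptide of the neuropeptide Y family that slows exocrine secretion and acts on appetite through the Y4 receptor. They are rare, and in the mouse they lie mostly in the part of the pancreas that arises from the ventral bud. Ppy and Pyy (peptide YY, another member of the family) are neighbouring genes on chromosome 11. Alpha cells, the islet cells they were compared with, make glucagon, and Irx1 and Irx2 are transcription factors of mouse alpha cells.

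The 2 neighbouring peptide genes and the glucagon gene are shown by the 250 bases before their RefSeq start sites, since Ppy chose these wells, Pyy was high in all of them and Gcg marks the class they were compared with. All 3 lie on the minus strand of GRCm38.p6, at chr11:102101320-102101569 for Ppy, chr11:102107833-102108082 for Pyy and chr2:62483654-62483903 for Gcg, and are printed 5′ to 3′ on the gene's strand with the letters TATAA in capitals.
Ppy: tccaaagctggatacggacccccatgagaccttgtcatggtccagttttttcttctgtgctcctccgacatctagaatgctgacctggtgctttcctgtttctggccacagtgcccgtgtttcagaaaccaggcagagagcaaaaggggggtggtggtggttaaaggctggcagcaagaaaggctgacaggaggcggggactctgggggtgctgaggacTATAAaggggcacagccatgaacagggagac
Pyy: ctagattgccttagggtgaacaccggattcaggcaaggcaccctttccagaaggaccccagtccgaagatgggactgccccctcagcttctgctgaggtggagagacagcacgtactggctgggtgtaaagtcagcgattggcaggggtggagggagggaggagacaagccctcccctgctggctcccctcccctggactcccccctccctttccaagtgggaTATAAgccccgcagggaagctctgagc
Gcg: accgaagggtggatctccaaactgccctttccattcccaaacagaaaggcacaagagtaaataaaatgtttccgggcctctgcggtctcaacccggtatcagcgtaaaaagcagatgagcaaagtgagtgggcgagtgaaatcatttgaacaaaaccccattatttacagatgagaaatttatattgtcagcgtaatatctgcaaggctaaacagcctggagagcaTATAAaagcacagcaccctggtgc
Each window held TATAA once on the gene's strand, 31 bases before the start in Ppy, 27 in Pyy and 24 in Gcg. Of 32544 mouse promoter windows of this length, 22.7% held TATAA on either strand and 4.23% held it on the gene's strand within the last 40 bases. The letters TAAT, the core of many homeodomain sites, were searched on both strands: the Gcg window held TAAT once on each strand, and the Ppy and Pyy windows held none, against 54.8% of all windows with at least 1. The windows of Ppy and Pyy held 55.2% and 61.2% G and C, and that of Gcg 44.8%. A match of letters describes the window and does not mark a site.

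By the selection, Ppy made up 12.1% to 47.4% of a gamma well's UMIs, with a median of 31.2%, and Sst at most 0.279%. The 3 wells just above the Ppy limit held 12.1%, 12.9% and 13.1%, and the 3 just below it 9.98%, 9.42% and 8.77%. The nearest Ppy-rich well on the other side of the Sst limit held 0.926% Sst, and 30 wells with both hormones were left out. Pyy and the antisense RNA gene E130111B04Rik were found in all 73 wells and Tspan8, a membrane tetraspanin, in 61. These 3 genes were put forward as gamma markers from earlier results of these data, so their folds below are given as a description. A list of 12 other genes known from gamma cells did not set these wells apart: it summed to 978 CPM (UMIs per 1000000 UMIs outside the 5 hormone genes) in gamma, 963 in glucagon-only, 1398 in somatostatin-only and 556 in insulin-only wells. Of it, Etv1 and Meis2 had 94 and 56 UMIs in gamma wells, and 5 genes (Aqp3, Id4, Cartpt, Thsd7a and Slc6a4) had none. Of 7 lymphocyte genes all were at 0, of 16 acinar genes 13 were at 0, and the endothelial, stromal and macrophage lists summed to 10, 15 and 16 UMIs over all 73 wells. Gamma wells held 1453 to 11124 UMIs (median 3676), and the plates 1250861 to 1508513 UMIs in all. No well name was shared between plates. No doublet caller was run.

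Gamma wells were few on every plate. On the sham plates 3 of 355, 6 of 353 and 13 of 339 wells were gamma (0.845%, 1.70% and 3.83%), and on the ppx plates 8 of 356, 27 of 362 and 16 of 350 (2.25%, 7.46% and 4.57%). These shares overlapped between the operations. The mean was 4.76% ± 2.61 (SD, n = 3) on ppx plates and 2.13% ± 1.54 (n = 3) on sham plates, a difference of 2.63 percentage points (exact permutation p = 0.2, two-sided, adjusted p = 0.48 over 12 share tests). Sham plates gave 16, 48 and 54 glucagon-only wells and ppx plates 5, 13 and 7.

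Of gamma plus glucagon-only wells, the gamma share was 15.8%, 11.1% and 19.4% on the sham plates against 61.5%, 67.5% and 69.6% on the ppx plates, with no overlap. The means were 15.4% ± 4.16 (SD, n = 3) and 66.2% ± 4.17 (n = 3), 50.8 percentage points apart (exact permutation p = 0.1, the smallest that 3 plates against 3 allow, adjusted p = 0.4). The gap held within each sort: 61.5% against 15.8% on the tomato-positive plates, and a mean of 68.5% over the 2 ppx plates against 19.4% on the sham plate of tomato-negative cells. The ratio speaks of the mix in the sorted islets: whether gamma wells were more or glucagon-only wells fewer in the tissue was not tested. The gamma share of all wells averaged 1.55% on the 2 tomato-positive plates and 5.29% on the 3 tomato-negative plates, which did not pass (exact permutation p = 0.1, the smallest possible, adjusted p = 0.4). The mixed plate sham 2 was left out of that test. Its share of 1.70% lay under the 2.25% of tomato-positive ppx 1.

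**Figure D1:**
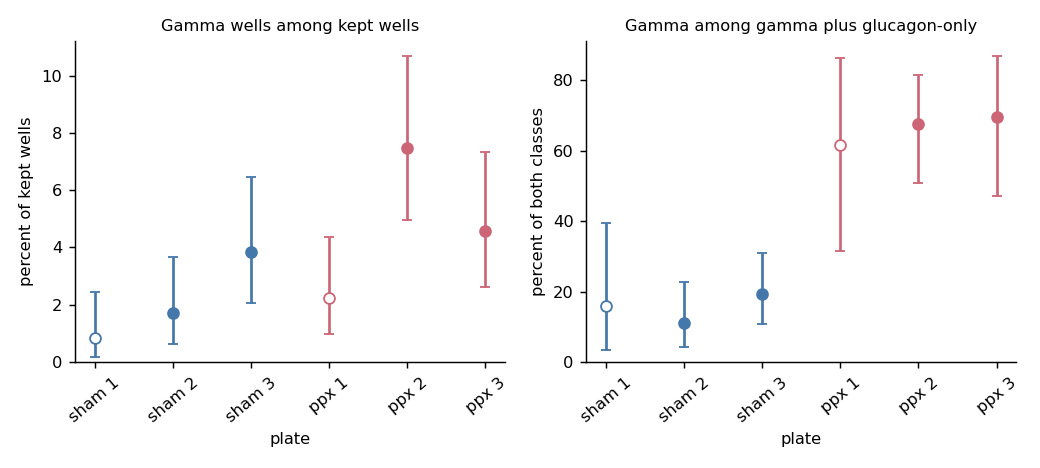
Gamma wells as a percent of all kept wells and of gamma plus glucagon-only wells on each of the 6 plates (blue sham, red ppx, open circles for tomato-positive plates, bars for 95% Clopper-Pearson intervals, which cover counting error only). The sham plates lie at 11.1% to 19.4% in the second panel and the ppx plates at 61.5% to 69.6%.

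The main comparison across genes was with glucagon-only wells. Levels in CPM leave out the 5 hormone genes Ppy, Gcg, Ins1, Ins2 and Sst, and tests used the summed wells of each class on each plate with at least 5 wells of both (sham 2, sham 3 and ppx 1 to 3), with the plate in the model. Of 392 genes tested with edgeR's quasi-likelihood test, 81 (20.7%) passed a Benjamini-Hochberg adjusted p of 0.05, 35 of them higher (8.93%) and 46 lower (11.7%). Without sham 3, 27 were lower. DESeq2 called 18 higher and 13 lower.

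Pyy, which encodes the gut and islet peptide YY, read 135178, 109221, 76384, 103885 and 142731 CPM in the gamma wells of sham 2, sham 3, ppx 1, ppx 2 and ppx 3, and 48969 in the 3 gamma wells of sham 1. In glucagon-only wells of the same 5 plates it read 7233, 15371, 15849, 17205 and 51697. The 2 classes did not overlap on these plates, and the glucagon-only wells of ppx 3 stood above those of the other plates. The median Ppy share of glucagon-only wells was 2.96% on ppx 3 and 0.0868% to 0.408% on the other plates. The log2 fold change was 2.86 ± 0.23 (SE, 5 plates). Pyy took 11.1% of the UMIs outside the hormones in gamma wells, 3.07% in somatostatin-only, 1.43% in glucagon-only and 0.0619% in insulin-only wells. Across gamma wells it ranged from 8197 to 320620 CPM (median 88670), and its Spearman correlation with the Ppy share over the 73 wells was 0.339, a description only, as the wells share plates and both values share the well's depth.

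E130111B04Rik read 2515, 8599, 4608, 25411 and 15295 CPM in gamma wells of the 5 plates in the same order, and 23.5, 174, 389, 1124 and 1345 in glucagon-only wells. On sham 1, which entered no test, it read 4296 and 68.3. Every gamma value lay above every glucagon-only value, and ppx 2 was highest among gamma wells. Its log2 fold change was 4.83 ± 0.21 (SE). Tspan8 rose from a mean of 157 in glucagon-only wells to 918 in gamma wells, a log2 fold change of 3.06 ± 0.31. On GRCm38 (GENCODE M21 annotation) Ppy spans chr11:102099930-102101319, Pyy chr11:102106676-102107832 and E130111B04Rik chr11:102030268-102035084, all on the minus strand. The gap between Ppy and Pyy is 5.357 kb and that between Ppy and E130111B04Rik 64.846 kb. The longest run of bases shared by Ppy and Pyy transcripts was 10 bases, and by Ppy and E130111B04Rik 13. Whether the counting used strand is not given in the sources used here.

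**Figure D2:**
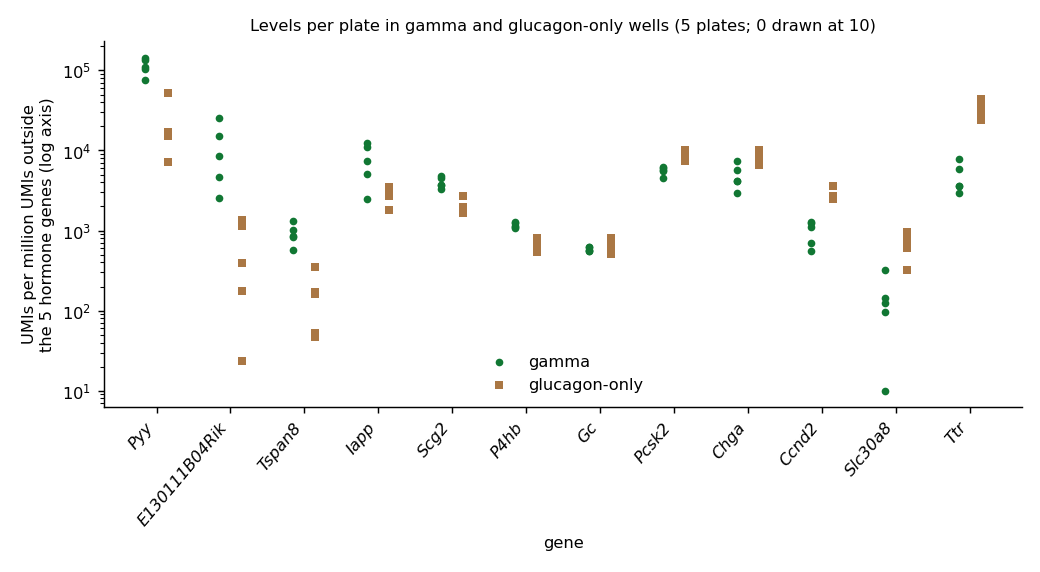
Levels in CPM (outside the 5 hormones) for 12 genes on 5 plates, gamma wells in green and glucagon-only wells in brown, on a log axis with 0 drawn at 10. Pyy, E130111B04Rik and Tspan8 lie higher in gamma wells, and Ttr higher in glucagon-only wells, on every plate.

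Several alpha cell genes were nearly absent from gamma wells. Irx1 had 1 UMI in all 73 gamma wells against 40 in 143 glucagon-only wells (21.4-fold lower, 95% exact counting interval 3.63 to 867) and Irx2 had 7 against 95 (7.27-fold lower, 3.39 to 18.6). A UMI of Irx1 was found in 1 of 73 gamma and 29 of 143 glucagon-only wells, and one of Irx2 in 5 of 73 (6.85%) and 63 of 143. With each well thinned to 1000 UMIs, Irx1 was seen in 0 of 73 gamma and 13 of 141 glucagon-only wells, and Irx2 in 0 of 73 and 24 of 141. For 0 of 73 the exact upper limit on wells with a UMI at that depth was 4.93%. The growth factor co-receptor gene Gfra3 had 2 against 56 (9.83 against 147 CPM). Slc38a5, an amino acid transporter of alpha cells, had none against 52, at least 9.28-fold lower with the 3-count floor over the group. Irx1, Irx2, Gfra3 and Slc38a5 were too low for the fit across genes.

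Gc, the vitamin D binding protein of alpha cells, had a log2 fold change of 0.05 ± 0.21 (adjusted p = 0.877) and the ETS factor gene Etv1 one of -0.05 (adjusted p = 0.895). Neither passed the test, and the sign of both turned under other settings. The endocrine factors Pax6 (305 against 255 CPM), Isl1 (211 against 334), Nkx2-2 (270 against 197), Meis2 (275 against 197) and Neurod1 (93.4 against 308) were seen in both classes, too low to be tested here. Ghrl, the epsilon cell hormone gene, had 12 UMIs in gamma wells and 14 in glucagon-only wells. The proliferation genes Mki67 and Top2a had no UMI in gamma wells.

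Ttr, which encodes the thyroxine carrier transthyretin and is abundant in alpha cells, read 2955, 7821, 3635, 5864 and 3590 CPM in gamma wells and 39429, 37331, 24233, 43711 and 29749 in glucagon-only wells. The classes did not overlap. In gamma wells Ttr fell by 2.70 ± 0.17 on the log2 scale (adjusted p = 7.4e-20). Of 6 alpha markers tested, 3 fell (among them Ttr and the arginine transporter gene Slc7a2, log2 fold change -1.18) and none rose. Over all 392 genes tested 11.7% fell. The median was -0.77 for the alpha markers and 0.03 over all tested genes. Count and median are a description, as a gene can reach the count minimum through the glucagon-only wells alone. DESeq2 called 2 of the 6 lower.

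Other genes that fell included Slc30a8, the zinc transporter of insulin and glucagon granules (log2 fold change -1.97 ± 0.32), the kinase gene Map3k15 (-2.24 ± 0.38), Tmsb15b2 (-2.07 ± 0.22), Gatsl2 (-1.28), the lipase gene Lpl (-1.24), the cyclin gene Ccnd2 (-1.22 ± 0.15), Zfp36 (-1.20), the protease gene Pappa2 (-1.09 ± 0.17) and Rbp4 (-1.05). Each was lower in gamma wells on all 5 plates. Pappa2 and Lpl were nonetheless far above their level in somatostatin-only wells.

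Rgs2, a regulator of G protein signalling, read 629, 709, 1075, 534 and 814 CPM in gamma wells against 384, 272, 283, 375 and 377 in glucagon-only wells. The classes did not overlap. Rgs2 rose by 1.32 ± 0.25 on the log2 scale (adjusted p = 4.2e-05) and the tetraspanin gene Tspan13 by 1.31 ± 0.26, each higher on all 5 plates. The 2-pore potassium channel gene Kcnk16 rose as well (1.13 ± 0.26). Folr1, a folate receptor gene too low for the fit, had 290 CPM in gamma wells and 79.0 in glucagon-only wells.

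Iapp, which encodes the amyloid peptide released with insulin, read 12575, 7455, 2457, 11064 and 5027 CPM in gamma wells against 2714, 3181, 1804, 3543 and 2690 in glucagon-only wells. It was higher on all 5 plates (log2 fold change 1.60 ± 0.15, adjusted p = 1.8e-12). With wells that carry a second hormone left out the log2 fold change of Iapp was 0.86 and did not pass (adjusted p = 0.0677). The median of Iapp was 47714 CPM in the 4 gamma wells rich in insulin and 2942 in the other 69.

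Genes of the secretory granule did not move as one. Of 13 tested, 2 rose and 4 fell, with a median log2 fold change of -0.27. Scg2, the granin secretogranin II, read 4036 ± 662 CPM (SD, 5 plates) in gamma wells and 1987 ± 416 in glucagon-only wells (log2 fold change 1.25 ± 0.13), and Chgb, chromogranin B, rose by 0.76 ± 0.14. Chga, chromogranin A, fell by 0.59 ± 0.14 on the log2 scale (4883 against 8376 CPM), Pcsk1n, the inhibitor of prohormone convertase 1, by 0.55, and Pcsk2, prohormone convertase 2, by 0.47. DESeq2 did not call Chga, Pcsk1n or Pcsk2, and Chga also lost its call without ppx 3. The summed level of the granule list was 33123 to 42502 CPM in gamma wells and 48412 to 53040 in glucagon-only wells, with no overlap.

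Chaperones and folding enzymes of the endoplasmic reticulum (ER) leaned higher: 3 of 15 rose and none fell, 14 of 15 had a positive log2 fold change and the median was 0.31. Dnajb9, a co-chaperone, rose by 1.38 ± 0.27, P4hb, protein disulfide isomerase, by 1.02 ± 0.17, and Hspa5, the chaperone BiP, by 0.48 ± 0.14, though Hspa5 lost its call without sham 3 and under DESeq2. Tram1, a translocon protein gene that is not on the list, rose by 1.19 ± 0.21. On the 5 tested plates the summed level of the list was 10532 to 11229 CPM in gamma wells against 8864 to 10490, with no overlap. The 3 gamma wells of sham 1, outside the test, read 9794 CPM, inside the glucagon-only range and above the 9515 of that plate's glucagon-only wells.

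Cytosolic ribosomal protein genes leaned lower. Of 33 tested, 10 fell and none rose, with a median log2 fold change of -0.31, and their summed level was 24630 to 31895 CPM in gamma wells against 37926 to 44873. DESeq2 called none of the 33, with a median of -0.32, and 5 fell without sham 3. Of 9 mitochondrially encoded genes 2 rose, mt-Rnr1 by 0.62 and mt-Rnr2 by 0.45, and the call of mt-Rnr2 was lost in most alternatives. Of 13 immediate early and heat shock genes, which respond to handling of tissue, 2 rose and 2 fell: Fosb rose by 0.59 and Dnajb1 by 0.81, and Dusp1 (-0.71) and Zfp36 (-1.20) fell. DESeq2 called 1 of the 13, lower. With levels left unscaled the median log2 ratio over all tested genes was -0.19 in place of 0.03, so values within that distance of 0 depend on the scaling.

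**Figure D3:**
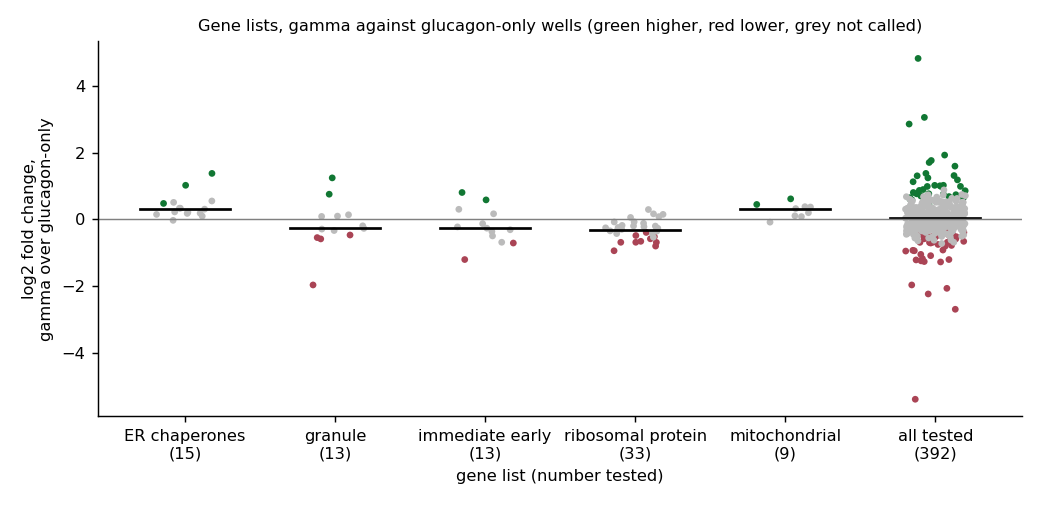
Log2 fold change of gamma against glucagon-only wells for the tested genes of 5 lists and for all 392 genes tested, 1 dot per gene with the median as a black line. The medians are 0.31 for ER chaperones, -0.27 for granule genes, -0.26 for immediate early genes, -0.31 for ribosomal genes, 0.32 for mitochondrial genes and 0.03 for all genes.

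Of 10 duct markers, 3 could be tested against glucagon-only wells, and these 3 rose in gamma wells, against 8.93% of all genes tested. They were Spp1, osteopontin (log2 fold change 1.93 ± 0.34, adjusted p = 1.2e-05), Clu, clusterin (1.77 ± 0.32), and Tspan8, which was among the genes put forward as gamma markers. The count is a description, as a gene can reach the count minimum through the gamma wells alone. Much of the Spp1 signal lay in 1 well of ppx 1: Spp1 read 377, 160, 2509, 352 and 263 CPM in gamma wells and 243, 98.2, 318, 102 and 0 in glucagon-only wells. That well held 47 of the 110 Spp1 UMIs. Without it (chosen after its values were seen) Clu had a log2 fold change of 1.46 (adjusted p = 0.00044), and Spp1 did not reach the count minimum, as it did not without ppx 1. Sox9, the duct factor gene that drives the Cre, had 3 UMIs in 3 gamma wells, and Krt19 had 2 in 1 well. Against somatostatin-only wells the duct markers did not stand higher as a list: Tspan8 rose, Clu fell (1016 to 1692 CPM there against 126 to 1792 in gamma wells, log2 fold change -1.09 ± 0.27), and the list summed to 2472 CPM there and 2757 in gamma wells. The ranges of Clu overlapped, and its call was lost without sham 3 (-0.92) and without wells that carry a second hormone (-0.75).

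Somatostatin-only wells (520), the delta cell class, shared Pyy with gamma wells at a lower level: Pyy read 34828, 30133, 29826, 51817 and 45294 CPM there, a log2 fold change of 1.56 ± 0.13 for gamma wells. Of 373 genes tested, 72 passed (19.3%), 33 higher (8.85%) and 39 lower (10.5%) in gamma wells. Pappa2 read 440 to 862 CPM in gamma wells and 0 to 42.2 in somatostatin-only wells (log2 fold change 4.26 ± 0.45). The Wnt ligand gene Wnt4 (3.69 ± 0.57), Lpl (2.78), Ttr (2.76 ± 0.21), Tspan13 (1.89), the calcium-binding protein genes Calb1 (1.53) and Scgn (1.36), Mbnl2 (1.31) and Tm4sf4 (1.24) also rose. Of 18 alpha markers 3 could be tested, and all 3 rose, against 8.85% of all genes tested. This count is a description, as a gene can reach the count minimum through the gamma wells alone. Among the 3 markers, Gc (0.86) lost its call in 11 alternatives. Tspan8 had a log2 fold change of 0.82, not called by DESeq2.

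Delta cell genes were lower in gamma wells, with 2 of 2 tested markers falling. That count is a description, as a gene can reach the count minimum through the somatostatin-only wells alone. Rbp4, which encodes retinol binding protein, read 205 to 479 CPM against 4660 to 6812 (log2 fold change -4.03 ± 0.20). It was still higher than in insulin-only wells on 4 of 5 plates (log2 fold change 3.02 ± 0.61), where it read 7.65 to 679 CPM. Fam159b had 3 UMIs in gamma wells and 913 in somatostatin-only wells (82.7-fold lower, 95% exact counting interval 28.2 to 402), Hhex, the delta cell transcription factor, 6 against 376 (17.0-fold lower, 7.75 to 46.7), and the surface protein gene Cd24a 5 against 1101 (59.8-fold lower, 25.6 to 185). Sez6l (-4.11), Frzb (-3.78), Gng4 (-2.04), Iapp (-1.62 ± 0.20), Hspa1a (-1.46) and Chgb (-1.45 ± 0.16) fell too. Chgb thus stood higher in gamma than in glucagon-only wells and lower than in somatostatin-only wells, in comparisons that share the gamma wells.

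Insulin-only wells (996), the beta cell class, differed most in count from gamma wells, in a test that covered more genes. Of 1140 genes tested, 403 passed (35.4%), 208 higher (18.2%) and 195 lower (17.1%) in gamma wells. Without ppx 2, 137 were higher, and without ppx 1, with 5717 genes tested, 353 were lower. Etv1 read 189, 686, 358, 469 and 359 CPM in gamma wells and 44.4 to 52.2 in insulin-only wells, with no overlap (log2 fold change 3.33 ± 0.29, adjusted p = 2.0e-09). E130111B04Rik (7.91), Pyy (7.54), Calb1 (5.24), the chromatin remodeller gene Smarca1 (4.83), Tspan8 (4.74), the glutathione peroxidase gene Gpx3 (4.14 ± 0.18), Spp1 (3.22), Pappa2 (3.13) and Meis2 (1.10) were higher. Spp1 stood at 2.66 without the well richest in it.

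All 11 beta cell markers tested fell. So did the 5 tested genes of a list of 21 for glucose uptake and metabolism (Acly, Aldoa, G6pc2, Pkm and Slc2a2). G6pc2 and Slc2a2 are also among the beta markers. Such genes can reach the count minimum through the insulin-only wells alone, so these counts are a description. Against glucagon-only wells 2 of the beta markers could be tested. Iapp (-3.48 ± 0.24), the transcription factor genes Mafa (-3.41 ± 0.36) and Nkx6-1 (-2.03), the glucose-6-phosphatase gene G6pc2 (-3.33 ± 0.22), the glucose transporter gene Slc2a2 (-3.30), the prolactin receptor gene Prlr (-3.20), the urocortin gene Ucn3 (-3.19), Slc30a8 (-2.47) and the prohormone convertase gene Pcsk1 (-2.37) were among the genes that fell, with Cox6a2 (-4.18), Ppp1r1a (-4.04), Insm1 (-1.76) and Neurod1 (-1.50). Nupr1 had 3 UMIs in gamma wells and 935 in insulin-only wells (17.6-fold lower, 6.02 to 85.7). Of 18 ER chaperone genes 12 fell and none rose, Hspa5 by 0.61, so these genes stood lower in gamma than in insulin-only wells. Of 37 ribosomal genes 30 rose, and of 17 immediate early genes 11 rose.

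Between operations no gene of gamma wells passed. With sham 2 and sham 3 against ppx 1 to 3, 0 of 587 genes (0%) passed edgeR's adjusted threshold, 32 had an unadjusted p under 0.05, and DESeq2 called 0 with 2 under 0.05. For 121 genes (20.6%) ppx and sham values were separate. E130111B04Rik averaged 15105 ± 10403 CPM (SD, n = 3 plates) on ppx plates and 5557 ± 4302 (n = 2) on sham plates, and its values overlapped (log2 fold change 1.46 ± 0.52, adjusted p = 0.884). Without sham 3 that value was 2.60 and E130111B04Rik passed, with the lone sham plate assumed to vary like the ppx plates. Chga averaged 3754 on ppx and 6577 on sham plates (-0.78 ± 0.27, adjusted p = 0.850), Pcsk1n had -0.78 (adjusted p = 0.850) and Tspan8 0.54 (adjusted p = 0.895), each with no overlap on these 5 plates. The 3 gamma wells of sham 1, outside the fit, read 2577 CPM for Chga and 1203 for Tspan8, which overlaps the ppx plates, and 6529 for Pcsk1n, which does not. Pyy had -0.17 (adjusted p = 0.983). On simulated data of this comparison 12.2% of 2-fold and 62.4% of 4-fold changes were recovered (658 genes). The simulated plates differed only in depth and a fixed random spread, so recovery in the real plates can differ.

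Most gamma wells carried little of any second hormone. Gcg lay at or under 2.09% in 63 wells and between 6.70% and 20.4% in the other 10 (13.7%, 95% Clopper-Pearson interval 6.77% to 23.8%). Insulin lay at or under 2.304% in 69 wells and between 4.63% and 15.4% in the other 4 (5.48%, 1.51% to 13.4%). No well was high in both. The median Gcg share over all gamma wells, 0.138%, was near the 0.115% of insulin-only wells and under the 0.285% of non-endocrine wells, which should lack it. The classes were spread unevenly over the plates. On sham 2, sham 3 and ppx 1 to 3 the gamma median was 0.407%, 0.198%, 0.281%, 0.125% and 0.0278%. In insulin-only wells it was 0.319%, 0.203%, 0.145%, 0.0889% and 0.0313%, and in non-endocrine wells 0.876%, 0.288%, 0.428%, 0.165% and 0%. The median insulin share over all gamma wells was 0.392%, against 0.394% in glucagon-only wells. By plate it was 0.178%, 0.405% and 0.543% on sham 1 to 3, against 0.223%, 0.397% and 0.579% in glucagon-only wells. On ppx 1 to 3 it was 0.423%, 0.309% and 0.261%, against 0.194%, 0.279% and 0.157%. Median depths were 3676 UMIs in gamma, 4248 in insulin-only, 3357 in glucagon-only and 892 in non-endocrine wells.

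Glucagon-rich gamma wells came 0, 0 and 4 from the sham plates and 1, 4 and 1 from the ppx plates. Their share of gamma wells was 11.2% ± 4.43 (SD, n = 3) on ppx plates and 10.3% ± 17.8 (n = 3) on sham plates (exact permutation p = 1), and that of insulin-rich wells 4.55% ± 3.98 and 2.56% ± 4.44 (exact permutation p = 1). Their Ppy share was 12.1% to 27.0% and their Ttr counts 5 to 143 UMIs. The 4 insulin-rich wells held 14.04% to 28.6% Ppy, and 2 of them held 16 Mafa UMIs, against 2 UMIs in 2 of the other 69 gamma wells. Wells with a second hormone had a median of 5773 UMIs and the other 59 a median of 3415. Whether they held more than 1 cell was not tested. No plate had 5 gamma wells of each kind, so genes were not compared between glucagon-rich and other gamma wells at this Ppy limit.

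**Figure D4:**
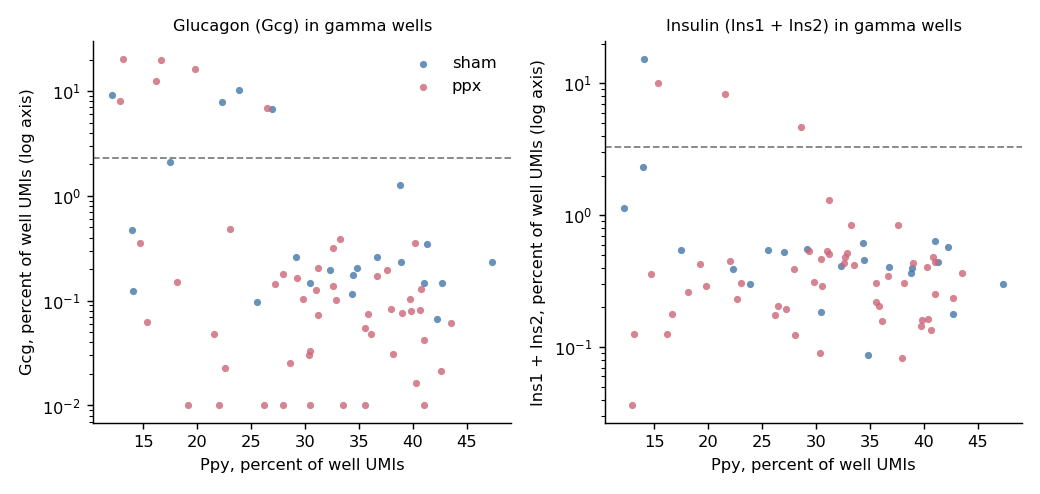
Gcg and insulin against Ppy, each as a percent of a well's UMIs, for the 73 gamma wells (log vertical axes, 0 drawn at 0.01, dashed lines at 2.3% and 3.3%). The 10 glucagon-rich wells at 6.70% or more stand apart from the other 63, and the 4 insulin-rich wells at 4.63% or more from the other 69.

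The depth of gamma wells and of glucagon-only wells on the same plate differed by less than the spread between plates, with a mean log2 ratio of medians of -0.11 ± 0.65 (SD, 6 plates, exact sign-flip permutation p = 0.78125). Thinned to 1000 UMIs, they held fewer different genes on 6 of 6 plates, with plate medians of 407.5 to 442 against 454 to 532 (ratio 0.869, exact sign-flip permutation p = 0.03125, the smallest that 6 plates allow). The hormone share, which the selection sets, enters that number of genes.

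Beside E130111B04Rik lies Mpp3, a scaffold protein gene at chr11:101999652-102028461 (minus strand, 1.807 kb away), singled out after its values were seen. In gamma wells of ppx 2 Mpp3 had 323 UMIs and was found in 27 of 27 wells, with 4 to 26 UMIs per well (median 12), or 4209 CPM. In the 46 gamma wells of the other 5 plates it had 2 UMIs in 2 wells, or 15.8 CPM. On ppx 2 itself Mpp3 had 3 UMIs in 13 glucagon-only wells, 7 in 8 somatostatin-only wells (652 CPM) and 63 in 292 insulin-only wells (62.1 CPM, against 9.56 to 52.2 on the other plates). The gamma wells of ppx 2 thus held 62.5% of the 517 Mpp3 UMIs of all kept wells. E130111B04Rik was highest on the same plate, and over its 27 gamma wells the Spearman correlation of both genes was 0.677, a description of wells that share a plate and their depth. The longest run shared by transcripts of both genes was 11 bases.

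**Figure D5:**
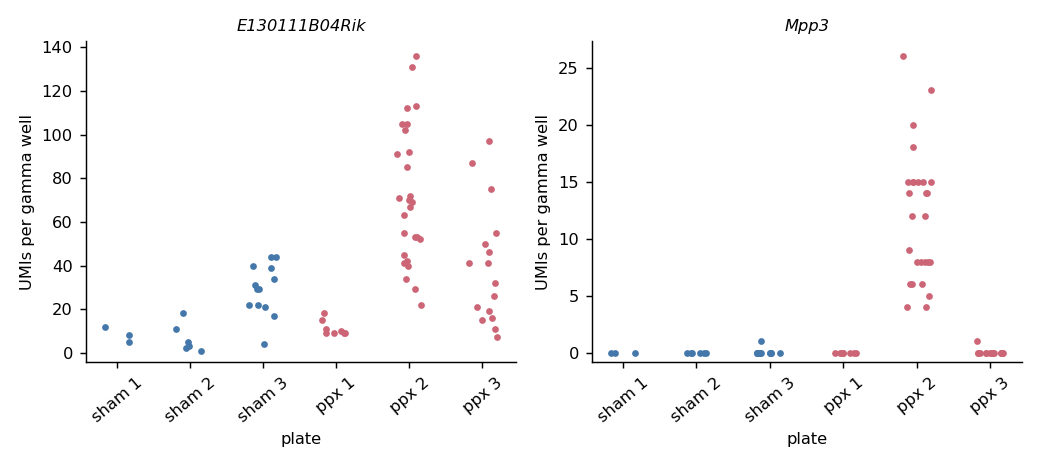
UMIs of E130111B04Rik and Mpp3 in each gamma well, by plate. E130111B04Rik is present in all 73 wells, while Mpp3 has 4 to 26 UMIs in the 27 wells of ppx 2 and 2 UMIs in all 46 wells of the other plates.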

How the data were processed

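The 6 MARS-seq plates of sorted mouse islet cells were used. HISAT 0.1.6 and the mm10 build are named in the submitters' processing notes; the counter, its annotation and use of strand are not stated in the sources used for this work. The deposited tables hold raw UMI counts per gene and well. ERCC spike-in rows (3 UMIs) were dropped, leaving 52542 genes. Of 2304 wells, 96 with under 500 UMIs and 93 more with over 20% mitochondrial UMIs were left out. Counts were summed per plate and class where a plate had at least 5 wells of both classes, and tested with edgeR 4.0.16 in R 4.3.3 (quasi-likelihood, TMM, filterByExpr, library sizes without the 5 hormones, plate as a term except between operations); DESeq2 1.42.0 was an alternative. A gene could pass filterByExpr through the class where it was high, so counts of list members that rose or fell are a description. Standard errors are the log2 fold change over the square root of F. Exact permutation tests used scipy 1.17.1. Named genes were the 12 called genes with the largest change in each direction whose plates had the same sign, called or leading members of the gene lists, and a set of islet genes, with some given as counts only and some not reported here. The members, markers and lists were chosen with earlier results of these data known. The fit was tested on simulated data: with 453 genes in the gamma against glucagon-only comparison, 54.6% of 2-fold and 100% of 4-fold changes were recovered. Simulated counts were drawn from a pooled profile with the same spread for every gene and no plate effects other than depth. Intervals and the floor of 3 counts cover counting error only.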

Additional observations from a re-analysis of the deposited data

How the results depend on the processing

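Of the counts and shares recomputed, 144 values were kept, 19 moved and 11 reversed. The values that moved were all counts of genes. For shares, a kept value had the same direction but not always the same size. The difference in glucagon-rich share, 0.932 points, rose to as much as 11.2 leaving out 1 plate and was not counted as moved. For the named genes 1368 values kept their call and direction, 124 lost the call, 2 gained it and 15 reversed. The cause was not tested except where fewer genes or plates entered. Between operations the difference in glucagon-rich share (0.932 points) was -6.48 at Ppy 5%, -7.50 at Ppy 20%, -10.2 at Gcg 1%, -4.85 without both tomato-positive plates, and -4.20 to 11.2 leaving out 1 plate. That in insulin-rich share (1.99) was -2.59 at Ppy 5%, -1.96 at insulin 1% and -1.33 at insulin 10%. The log2 depth ratio ranged from -0.26 to 0.13 leaving out 1 plate. Against glucagon-only wells (35 higher, 46 lower) DESeq2 gave 18 and 13, no count filter 7 and 15, and leaving out 1 plate 27 to 54 lower. Etv1 reversed to 0.27 at Ppy 20% and 0.039 without tomato-positive plates (-0.32 to 0.11 leaving out 1 plate), and Gc to -0.20 with no filter and -0.037 at Ppy 5% (-0.083 to 0.12). Against somatostatin-only wells 18 were higher with no filter and 23 lower by DESeq2. Against insulin-only wells 137 to 213 were higher and 132 to 353 lower leaving out 1 plate; 617 were lower with no filter and 353 without tomato-positive plates.

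Between operations no filter gave 1 higher and 1 lower, Ppy 20% 2 and 3, and leaving out 1 plate 0 to 2 and 0 to 1. Pyy reversed to 0.034 with no filter, 0.27 at Ppy 5%, 0.065 without tomato-positive plates and 0.051 with tomato as a covariate (-0.47 to 0.065 leaving out 1 plate). Deviations of plates with the same number had correlations of 0.132, 0.0477 and 0.0275, and those of plates with different numbers lay between -0.113 and 0.117. With so few plates these values cannot decide whether the numbers pair them. The fit with a replicate block gave 1 gene higher and 1 lower between operations with a log2 fold change of 2.08 for E130111B04Rik, which passed, and of 0.041 for Pyy; without the plate block 33 were higher and 45 lower against glucagon-only wells. For the shares a replicate block cannot move the difference, since the mean of 3 paired differences is the difference of the means (2.63 and 50.8 points). Sham 1 had 3 gamma wells and entered no test across genes. The smallest summed libraries held 24434 UMIs for gamma wells (sham 2), 28752 for glucagon-only (ppx 3), 14248 for somatostatin-only (ppx 2) and 110436 for insulin-only wells (ppx 1).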

Other observations

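One gamma well of ppx 1, singled out after its values were seen, held a large part of the UMIs of several duct genes and of Apoe. It had 5624 UMIs, 14.7% Ppy, 0.356% Gcg and 186 Pyy UMIs. It held 47 of 110 Spp1 UMIs, 25 of 123 Clu UMIs, 29 of 35 UMIs of the apolipoprotein gene Apoe, 7 of 68 Krt18 UMIs, both Krt19 UMIs, both Muc1 UMIs and 1 of 3 Sox9 UMIs. Summed over 9 duct genes without Tspan8 it read 18522 CPM, against 6778 in the next gamma well and a median of 1105. Without that well 38 genes were higher and 42 lower against glucagon-only wells.

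Ghrl was unevenly spread over plates in gamma and glucagon-only wells: all of its UMIs outside sham 1 lay on ppx 1, where it read 563 CPM in gamma and 425 in glucagon-only wells. Both plates held tomato-positive cells. The 4 epsilon genes, Ghrl among them, summed on ppx 1 to 591 CPM in somatostatin-only and 548 in insulin-only wells. On sham 1 they summed to 173 and 124 CPM. A raised level on ppx 1 was thus not particular to gamma and glucagon-only wells.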
